A study of Drosophila melanogaster with 2 samples.

Results

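The bithorax complex and the Antennapedia complex are the Hox clusters of Drosophila melanogaster, and both lie on the right arm of chromosome 3 (3R). The bithorax complex was taken as the 33 bins of 10 kb on 3R from 12480001 to 12810000 and the Antennapedia complex as the 35 bins from 2480001 to 2830000, in coordinates of release 5 of the genome. Together these are 68 of the 2788 bins of 3R and of the 12752 bins of the genome that hold contacts. Their limits were fixed by position and not by any contact value. The map is a Hi-C map of Kc167 cells, an established cell line of embryonic origin, grown untreated and fixed with formaldehyde. Chromatin was cut with DpnII, and each ligated pair of fragments that was sequenced, a di-tag, counts as 1 contact between the bins of its ends. There was 1 group with 2 replicates, which the authors combined, so the values below have no spread between replicates and no test across samples. Where an interval is given it is a 95% interval for counting error only.

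Hox genes code for homeodomain transcription factors that give the segments of the body their identity. Along 3R, in the order of the RefSeq annotation of release 6, the Antennapedia complex holds lab, pb, zen2, zen, bcd, Dfd, Scr, ftz and Antp, and the bithorax complex holds Ubx, abd-A and Abd-B. Of these, lab, pb, Dfd, Scr and Antp specify the head and the anterior thorax, and Ubx, abd-A and Abd-B specify the posterior thorax and the abdomen. The genes zen and bcd act in early patterning of the embryo and ftz is a pair-rule segmentation gene. The Antennapedia complex is the more mixed of the clusters, with 20 protein-coding genes among the 45 annotated from lab to Antp, against 6 among the 17 from Ubx to Abd-B. Both clusters are classical targets of Polycomb group proteins, which keep Hox genes silent where they should not act and leave the H3K27me3 mark over wide stretches of DNA. No gene positions of release 5 were used here, so bins are given by position and no bin is assigned to a gene.

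The whole map holds 34287983 di-tags, of which 7757547 join a pair of positions on 3R. The 3R total of a bin, its di-tags with all of 3R, had a median of 5411 on the arm. In the bithorax complex these totals ran from 2653 to 7361 with a median of 5448, close to the arm. In the Antennapedia complex they ran from 3076 to 7614 with a median of 6699, and 94.2% of all 3R windows of 350 kb had a lower mean total. No bin of either complex fell under 0.25 of the arm median. The Antennapedia complex stands at different levels on the raw map and on the normalised map that the authors deposited, and both are given.

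The deposited HiCseg segmentation, which cuts the normalised map into topologically associated domains (TADs), places nearly all of the bithorax complex in a single TAD. This TAD runs from 12480001 to 12800000. At 320 kb it is among the largest of the 299 TADs of 3R, where the median is 70 kb, 2 are larger and the largest spans 380 kb. The low limit of the complex falls on its border, and the high limit lies 10 kb beyond its other border, so that the last bin of the complex belongs to the next TAD, from 12800001 to 12870000. With 2 TADs overlapping it, the bithorax complex is less divided than most of the arm. Windows of 330 kb on 3R overlap a median of 4 TADs, and 7.61% of them overlap as few as 2.

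The Antennapedia complex is split. A border at 2650000 divides it into a TAD of 160 kb from 2490001 to 2650000, wholly inside, and a TAD of 240 kb from 2650001 to 2890000, of which 75% lies inside. The first bin of the complex belongs to a TAD of 200 kb that extends down to 2290001. The high limit at 2830000 falls within the second TAD and is 60 kb from its border. Of all 3R windows of 350 kb, 20.0% overlap 3 TADs or fewer, as this complex does, and the median is 5.

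Inside the TADs, contacts were compared with the mean of 3R at the same distance (observed over expected), over bins at least 20 kb apart. The bithorax TAD had a mean of 1.58 on the normalised map and 1.59 on the raw map, from 39769 di-tags. These values exceed 76.0% and 71.0% of the 283 TADs of 3R that are large enough to measure. Among the 47 TADs of at least 160 kb, however, the median was 1.59 on the normalised map, and 25 of them were denser than the bithorax TAD. For its size the bithorax TAD was therefore of ordinary density. The Antennapedia TADs were weaker on the normalised map, with 0.919 for the TAD from 2490001 (15.5% of TADs lower) and 1.28 for that from 2650001 (49.5% lower). On the raw map they stood at 1.38 and 2.15, the latter above 94.0% of TADs.

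**Figure D1:**
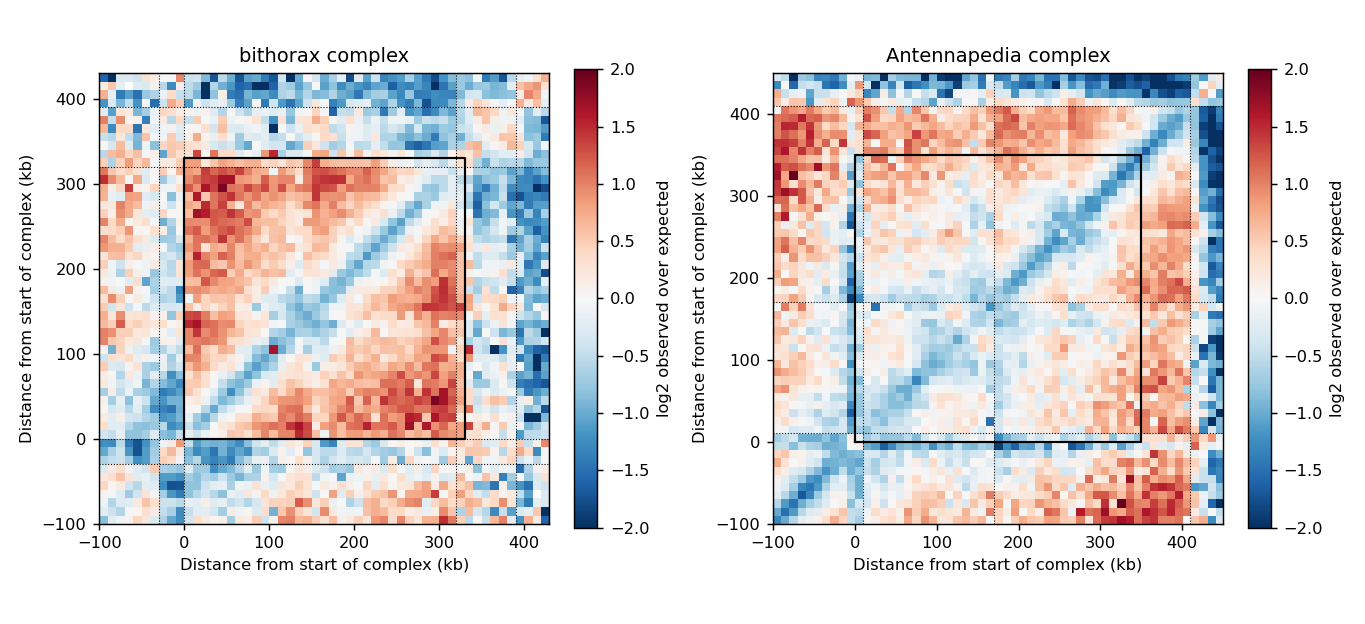
Contact maps of the bithorax complex (left) and the Antennapedia complex (right) with 100 kb on either side. Both axes give distance from the start of the complex in kb, colour gives the log2 of normalised observed over expected interaction per pair of 10 kb bins, the solid square marks the complex and dotted lines mark HiCseg borders. The bithorax complex is enriched over most of its square and also with bins from 60 kb below it, beyond the 30 kb TAD at its low limit, and enrichment at the upper end of the Antennapedia complex runs on to the border at 410 kb.

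Taken over the whole complex, the bithorax complex held 41696 di-tags between bins at least 20 kb apart (interval 41297 to 42098), where the median window of 330 kb on 3R held 32618. Its mean normalised interaction was 1.57 times that of the arm at equal distance. Of the 2758 windows of equal size on 3R, 160 were denser (5.8%), none of them overlapping the complex, and the median window stood at 0.951. On the raw map the value was 1.59 and 95.6% of windows were lower. Neighbouring windows overlap, so these shares describe the position of the complex on the arm and are not a test.

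The Antennapedia complex held 49429 such di-tags (interval 48994 to 49867), more than 95.9% of windows of 350 kb. Its mean raw interaction was 1.56 times that of the arm, above 95.0% of windows and nearly that of the bithorax complex. On the normalised map it was 1.05, with 1087 of 2756 windows denser (39.4%). After iterative correction, which scales every bin to the same total, it was 1.27 and 84.9% of windows were lower. The bithorax complex was thus dense on each of these maps, and the place of the Antennapedia complex differed between them. The part of its high bin totals in this was not tested.

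**Figure D2:**
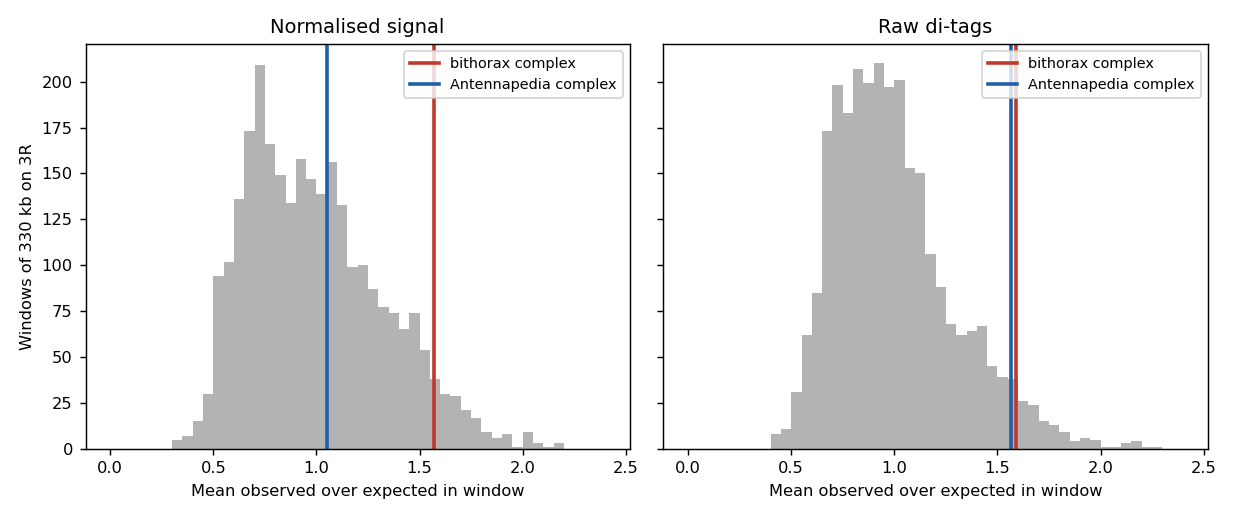
Mean observed over expected interaction between bins at least 20 kb apart in all 330 kb windows of 3R (grey, number of windows on the y axis), on the normalised (left) and the raw map (right). Lines mark the bithorax complex (red) and the Antennapedia complex (blue, a window of 350 kb), at 1.57 and 1.05 on the normalised map and at 1.59 and 1.56 on the raw map.

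On the normalised map, interaction over expected rose with distance inside both complexes. In the bithorax complex the mean normalised observed over expected interaction was 0.634 at 10 kb (7857 di-tags) and 0.973 at 30 kb. It rose to 1.18 at 50 kb, 1.67 at 100 kb (1947 di-tags), 2.02 at 200 kb (581 di-tags) and 2.65 at 250 kb (347 di-tags). Against windows of equal size, 5.04% were lower at 10 kb and 97.3% at 100 kb. Beyond 100 kb this share did not rise steadily, with 92.8% at 200 kb, 98.0% at 250 kb and 91.5% at 260 kb. The value at 250 kb stood above those at 240 kb (2.12) and 260 kb (2.01). Adjacent bins of the bithorax complex were thus in contact less often than on most of the arm and distant bins more often. The Antennapedia complex rose in the same direction but more slowly, from 0.573 at 10 kb to 1.01 at 100 kb and 1.29 at 250 kb. At 10 kb only 1.38% of windows were lower than the Antennapedia complex, at 100 kb 54.1% and at 250 kb 72.0%. Its normalised values at long distance were thus not far from those of other windows. Raw interaction in the Antennapedia complex went from 0.852 at 10 kb to 1.60 at 100 kb, and was already at 1.04 at 20 kb and 1.41 at 50 kb.

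The ratio of short-range interaction (10 to 50 kb) to long-range interaction (over 50 to 500 kb) of each bin was low in both. Its median was 0.659 over the bins of the bithorax complex (lowest 0.536, highest 0.892) and 0.684 over those of the Antennapedia complex (lowest 0.601, highest 0.842). The median bin of 3R stood at 1.02. By construction 50% of 3R bins lie above that median, but 0 of the 33 and 0 of the 35 bins of the complexes did. Among windows of equal size, 17.2% and 21.0% had a lower median.

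Insulation was measured at every bin edge as the log2 ratio of the interaction that crosses the edge to that within its sides, in a square of 50 kb. Values below 0 mean that less interaction over expected crosses the edge than lies within its sides. Crossing pairs lie on average at longer distances than pairs within the sides, and interaction over expected rises with distance in both complexes. Such a rise alone raises the ratio at every edge of a complex, and its part in the values below was not tested. Over the 2781 edges of 3R the median was 0.04, and at the 289 HiCseg borders it was -0.79. Inside the bithorax complex the 3 lowest edges all lay at its ends, at 12480000 (-0.56 ± 0.08, counting interval), 12810000 (-0.54 ± 0.07) and 12490000 (-0.49 ± 0.08). The border at 12480000 thus had a higher value than most, with 68.5% of the borders of 3R lower. The border at 12800000 had -0.48, and the lowest edge on that side lay just outside the complex at 12820000 (-0.67).

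Between its ends the bithorax complex had high values, a level not separated from the rise of interaction over expected with distance. Of its 34 edges 7 lay below 0, all within 30 kb of its limits, against 47.7% of edges on 3R. The median edge stood at 0.54, and 98.5% of windows of equal size on 3R had a lower median. The maximum was 0.78 at 12560000. One clear dip interrupted this plateau, at 12620000, where the value fell to 0.07 ± 0.08 without a HiCseg border. In the 50 kb square it was still at the level of the median edge of 3R. In a 30 kb square it lay below 0, at -0.12, as did 12630000 (-0.05), and in a 100 kb square it stood at 0.34. A shallower dip in the 50 kb square, to 0.50, lay at 12700000. These 2 edges were the local minima of the complex, counted within 30 kb, where 11.1% of 3R edges are such minima.

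The dip at 12620000, chosen after the values were seen, parts the bithorax TAD into 140 kb below and 180 kb above. Interaction within the parts was 1.41 and 1.47 times that of the arm at equal distance, and interaction between the parts was 1.69 times, from 13299 di-tags (interval 13074 to 13527). On the raw map the same values were 1.37, 1.51 and 1.69. Pairs of bins between the parts lie at longer distances than pairs within them, and interaction over expected rises with distance in this complex, so these values do not show whether the dip separates the parts. The lower part had 0.673 times the arm mean with the 30 kb TAD just below the complex, and the upper part 0.901 times with the 70 kb TAD just above. The upper part had 0.864 times with the 30 kb TAD (0.981 on the raw map), from 904 di-tags at longer distances. Enrichment resumed beyond the 30 kb TAD. With the next TAD down, from 12310001 to 12450000, the lower part had 1.21 times the arm mean (6595 di-tags) and the upper part, which is farther away, 1.48 times (3951 di-tags). Distances differ between these values too, and their part was not tested.

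The Antennapedia complex had no edge far below 0 within its limits. Its lowest edge was the HiCseg border at 2650000 (-0.12 ± 0.06), a value above those of 90.3% of the borders of 3R. The next were 2590000 (-0.03 ± 0.06) and 2640000 (-0.0034 ± 0.06), and these 3 were the only ones of 36 below 0. In a square of 100 kb they all lay above 0, at 0.19, 0.15 and 0.15. In a square of 30 kb they stood at -0.05, 0.10 and -0.07, and the lowest edges were 2500000 (-0.23) and 2490000 (-0.19). At the border of 2490000 the value in the 50 kb square was 0.07, near that of the median edge of 3R. The median edge of the complex stood at 0.39, above 90.8% of windows, a level likewise not separated from the rise with distance. The maximum of the complex, 0.76, was at 2780000. Of its 36 edges 5 were local minima, at 2510000, 2590000, 2650000, 2740000 and 2820000, which is near the share of 11.1% on 3R. A strong drop lay outside it, at the border of 2890000 (-0.99 ± 0.06) and the next edge, 2900000 (-1.01 ± 0.06), with 7.55% and 7.16% of 3R edges lower.

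**Figure D3:**
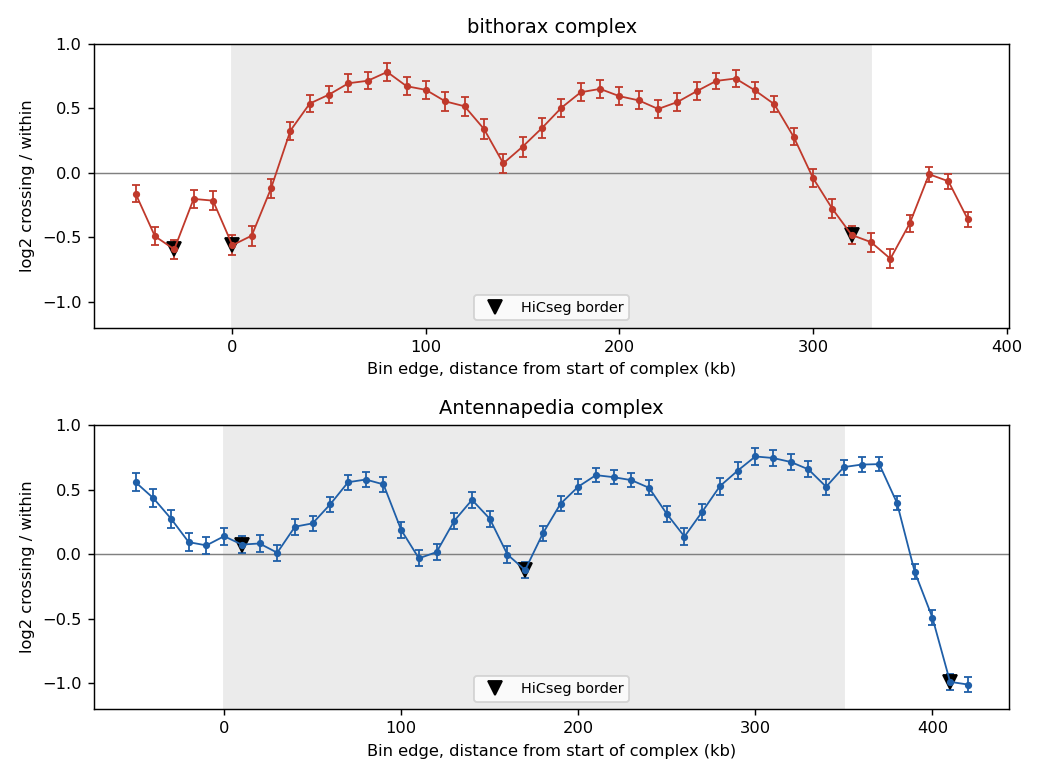
Insulation along the bithorax (top) and Antennapedia complex (bottom). The x axis gives the bin edge as distance from the start of the complex in kb and the y axis insulation on the log2 scale (normalised map, 50 kb square), bars are 95% counting intervals, grey marks the complex and triangles HiCseg borders. The bithorax complex is a plateau with 1 dip to 0.07 at 140 kb, and the Antennapedia complex dips at its inner border and falls to -0.99 at 410 kb, beyond its limit.

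Contacts across the Antennapedia borders were measured in the same way, and here too pairs between TADs lie at longer distances than pairs within them. Between the TADs from 2490001 and from 2650001, interaction was 1.24 times the 3R mean for its distance (18409 di-tags), beside 1.28 within the latter and 0.919 within the former. The TAD from 2650001 had 1.77 times the 3R mean with the TAD that ends at 2490000, on the far side of the complex (9490 di-tags). Across the border at 2890000 it had 0.497 times the arm mean with the next TAD (5884 di-tags), which is adjacent and so at shorter distances. On the raw map these values were, in the same order, 1.93, 2.15, 1.38, 2.47 and 0.995, so that their ranking was unchanged but contact across 2890000 stood at the arm mean. Between the adjacent TADs at the border of 2490000, interaction was 1.33 times the 3R mean (16423 di-tags) and 1.83 times on the raw map.

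Among single bin pairs at least 50 kb apart, the strongest of the bithorax complex on the raw map joined bins of its lower and upper parts. The highest was 12530001 to 12540000 with 12760001 to 12770000, 230 kb apart, with 68 di-tags (interval 52.8 to 86.2) and 3.80 times the arm mean. The next were the pair 220 kb apart from 12540001 and 12760001 with 71 di-tags (3.71 times), and that of 12500001 and 12750001 with 57 (3.63 times). Bin 12760001 to 12770000 also has the highest total of the complex, and on the normalised map these pairs stood lower, at 2.73, 2.10 and 2.80 times. In the Antennapedia complex the highest pair joined bins near its ends, 2500001 to 2510000 with 2820001 to 2830000, with 35 di-tags over 320 kb (interval 24.4 to 48.7, 3.29 times on the raw and 2.24 on the normalised map).

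The complexes were then compared with each other. Their starts are 10 Mb apart, and their bins form a rectangle of 1155 bin pairs. This rectangle held 460 di-tags (interval 419 to 504), or 0.398 per bin pair. At this depth 785 of the pairs held no di-tag, 290 held 1, 74 held 2 and 6 held 3 or more. The contact was thus spread over many pairs of bins, and no single pair carried it.

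All pairs of windows of 350 and 330 kb on 3R with starts 10 Mb apart were measured in the same way, 1758 in all with that of the complexes. Their median was 219 di-tags and 95% of them held between 119 and 348. Only 5 held more than the complexes (0.284%), and all 5 were the rectangle itself moved by up to 50 kb, with at most 473 di-tags. Among the 1689 window pairs that do not overlap the rectangle in this way, none reached it. The highest of these, between 10840001 to 11190000 and 20840001 to 21170000, held 357 (interval 321 to 396). The complexes therefore exceeded the median window pair 2.10 times (interval 1.91 to 2.30) and lay above the counting interval of the next highest.

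**Figure D4:**
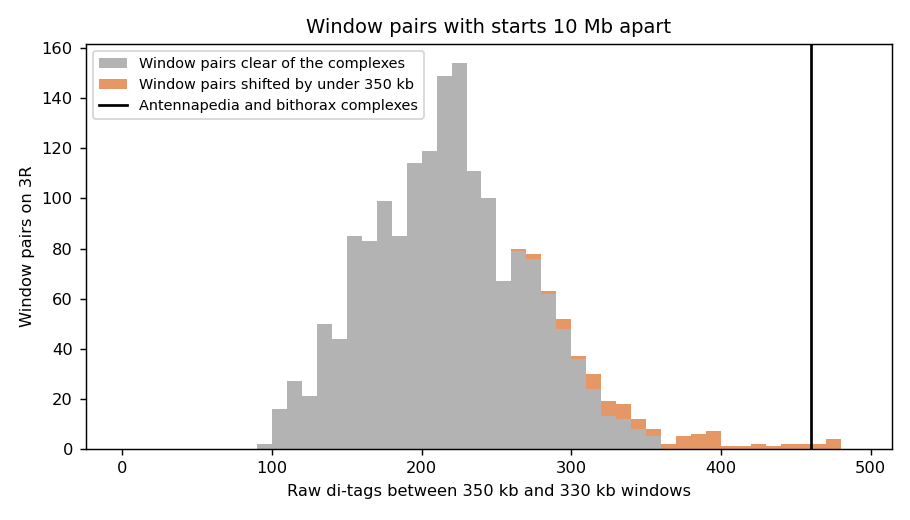
Raw di-tags between windows of 350 kb and 330 kb on 3R with starts 10 Mb apart (x axis) against the number of window pairs (y axis). Grey bars are the 1689 window pairs clear of the complexes, orange bars those moved from the complexes by less than 350 kb, and the line marks the 460 di-tags of the Antennapedia and bithorax complexes.

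The contact was also set against the bin totals of the complexes, which are high in the Antennapedia complex. Where the di-tags were divided by the product of the totals of each window, the complexes stood at 1.71 times the median window pair, and 99.7% of window pairs were lower. On the normalised map they stood at 1.85 times and after iterative correction at 1.91 times, with 99.7% lower in both. When separations up to 500 kb shorter or longer were included, 127 of 177558 window pairs held more di-tags than the complexes, and 0 of these were clear of their rectangle.

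Each complex was then searched for its partners along 3R. From the bithorax complex, mean normalised interaction at equal distance was computed with all 350 kb windows more than 2 Mb away. The Antennapedia complex had 1.80, where the median of 2289 windows was 0.934. The 10 windows above it all overlapped it, and the maximum of 1.95 was at 2530001 to 2880000, 50 kb further up. Clear of it, the next highest windows were 6800001 to 7150000 with 1.44 and 6240001 to 6590000 with 1.41. The first of these was at 1.22 on the raw map, where 186 windows were higher, and the other was at 1.63.

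From the Antennapedia complex, windows of 330 kb had a median of 0.854, and the 3 windows above the bithorax complex all overlapped it, with a maximum of 1.82 at 12490001 to 12820000. The next windows clear of it were 25810001 to 26140000 with 1.22 (88 di-tags) and 25270001 to 25600000 with 1.17 (84 di-tags). On the raw map these stood at 1.13 and 1.01, where 547 and 1036 of 2291 windows were higher. From either side, no window clear of the partner was above it on the normalised map.

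Bin by bin, the contact covered both complexes and, on the Antennapedia side, ran past the limit of the complex to the next TAD border. Seen from the bithorax complex, the bins of the Antennapedia complex held between 6 and 19 di-tags with a median of 13. Of these 35 bins, 34 exceeded the 3R mean at their distance, against 40.4% of all 3R bins over 2 Mb away, and 22 did so by more than their counting interval, against 6.2%. The TAD from 2490001 held 12.9 di-tags per bin (interval 11.2 to 14.8) and that from 2650001 held 15.1 (13.6 to 16.7). The latter includes 6 bins beyond the limit of the complex, with 13 to 29 di-tags each. Past the border at 2890000 the next TAD fell to 7 per bin (interval 5.04 to 9.46), near the 3R mean. Below the complex, the TAD from 2290001 held an intermediate 9.25 (7.97 to 10.7), which is 1.52 times the 3R mean.

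Seen from the Antennapedia complex, the bins of the bithorax complex held between 4 and 33 di-tags with a median of 13. Here 31 of 33 bins exceeded the 3R mean, against 46.4% of distant bins, and 17 did so by more than their counting interval, against 5.06%. The profile was more uneven than on the other side. The most were in bin 12750001 to 12760000 with 33 di-tags (interval 22.7 to 46.3), 4.94 times the 3R mean, followed by 12540001 and 12550001 with 24 each (3.54 times). Without its highest bin the bithorax complex still held 427 di-tags with the Antennapedia complex. The bithorax TAD held 14.1 per bin (12.8 to 15.5), the TAD above it 8.00 (6.04 to 10.4) and the TAD of 30 kb below it 9.33 (6.20 to 13.5). The next TAD down, from 12310001, held an intermediate 9.71 (8.15 to 11.5), which is 1.42 times the 3R mean.

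Against flanks of 300 kb, leaving out the 6 flank bins of the TAD from 2650001 but keeping those of the TADs that hold only 1 bin of a complex, the bins of the bithorax complex held 1.60 times as many di-tags with the partner (interval 1.41 to 1.81) and those of the Antennapedia complex 1.73 times (interval 1.52 to 1.98). The flanks themselves were not at the 3R mean. The 300 kb below and above the bithorax complex stood at 1.39 and 1.22 times that mean, and those of the Antennapedia complex at 1.36 and 1.43 times, the last including the 6 bins of its second TAD.

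**Figure D5:**
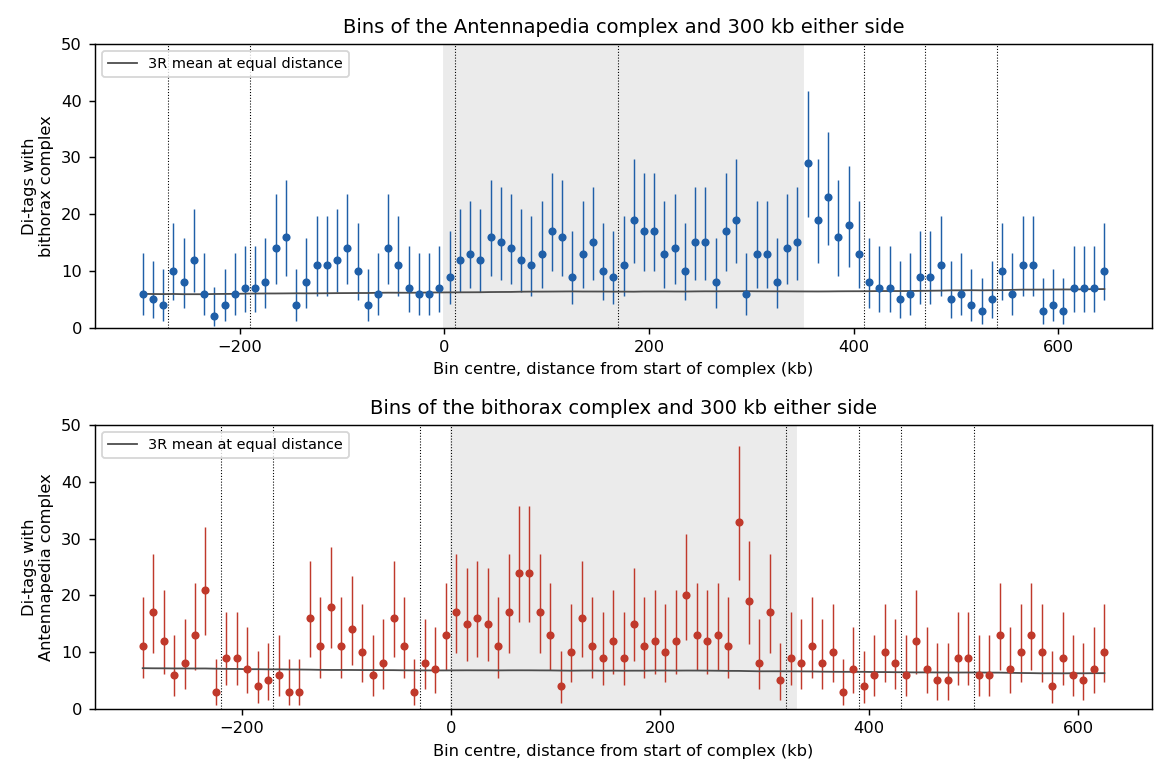
Di-tags of each 10 kb bin with the opposite complex (y axis) along the Antennapedia complex (top) and the bithorax complex (bottom), with 300 kb on either side. The x axis gives the bin centre as distance from the start of the complex in kb, bars are 95% Poisson intervals, grey marks the complex, dotted lines HiCseg borders and the solid line the 3R mean at equal distance. Bins of the Antennapedia complex stay high up to the border at 410 kb, and bins of the bithorax complex peak at 33 di-tags.

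By TAD, the most di-tags lay between the TAD from 2650001 to 2890000 and that from 12480001 to 12800000, with 358 di-tags over 768 bin pairs, 2.41 times the 3R mean at equal distance (interval 2.17 to 2.67). The TAD from 2490001 to 2650000 held 200 di-tags over 512 bin pairs with the bithorax TAD, 2.04 times (1.77 to 2.34), so their intervals overlap. Across 2890000 the next TAD up had 41 di-tags with the bithorax TAD, 1.09 times (0.785 to 1.48). The TADs of 30 and 70 kb that flank the bithorax TAD were also in contact with the TAD from 2890001 to 2950000. That from 12450001 had 3.22 times the 3R mean (12 di-tags over 18 bin pairs, interval 1.66 to 5.63). That from 12800001 had 2.80 times (23 over 42 bin pairs, interval 1.77 to 4.19). These pairs had the highest ratios among the TADs of the complexes and next to them. They rest on few di-tags, and their intervals overlap those of the larger TADs. On the normalised map they stood at 1.87 and 2.08 times. With the TADs from 2290001, 2490001 and 2650001, the same flanking TADs stood between 0.833 and 1.34 times on that map.

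On all of 3R, 3609 pairs of TADs lie more than 2 Mb apart and span at least 200 bin pairs. Of these 99.1% had a lower normalised interaction at equal distance than the pair of 2650001 and 12480001, at 2.02, and 98.4% than the pair of 2490001 and 12480001, at 1.82. The pairs that were higher numbered 32 and 57 on the normalised map, and 6 and 8 on the raw map. Among TAD pairs whose gap differs by at most 2 Mb, 1 of 782 was above the former on the normalised map and 0 on the raw map. For the latter it was 5 and 1 of 778.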

How the data were processed

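Contacts came from 2 Hi-C replicates of Kc167 cells. Reads were mapped by the authors to genome release 5 with HiCUP (Bowtie2 2.2.6 per the submitters' processing notes). Invalid and duplicate pairs were removed, and the replicates were combined and binned at 10 kb. The authors deposited the raw count of di-tags per bin pair, a normalised signal made with GOTHiC, and TAD coordinates from HiCseg. Of the map, 87.9% of di-tags lie within an arm and 76.0% of filled bin pairs hold 1 di-tag.

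Expected interaction is the mean of 3R by distance over bins with di-tags, empty pairs counted as 0. Windows slide by 1 bin. Counts carry exact Poisson intervals and log ratios a normal approximation of counting error. For insulation that approximation uses the summed raw di-tags that cross an edge and lie within its sides. It is therefore not the exact error of the normalised ratio, which weighs all bin pairs equally. The statistics were tested on simulated data. Regions named are the TADs of each complex, its 3 lowest edges, top bin pairs and top partner windows. The members and lists were chosen with earlier results of these data known. Alternatives were the raw and the iteratively corrected map, other distances, squares, limits and windows. Gene order came from the RefSeq table of release 6, whose coordinates were not used. Calculations used pandas 2.3.3, scipy 1.17.1 and numpy 2.4.6 in Python 3.11.15, and plots matplotlib 3.10.9.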

Additional observations from a re-analysis of the deposited data

How the results depend on the processing

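The contact between both complexes stayed above at least 99.6% of window pairs under every alternative tried. Its ratio to the median window pair, 2.10 as reported, moved beyond its counting interval to 1.85 on the normalised signal, 1.91 after iterative correction and 1.71 over the product of bin totals. With the TADs as limits, an alternative chosen after seeing the data, 558 di-tags gave 2.30 times. For contact density, raw di-tags gave 1.59 for the bithorax and 1.56 for the Antennapedia complex, and iterative correction gave 1.53 and 1.27. From 10 kb the values were 1.51 and 1.02, from 50 kb 1.71 and 1.10, and with the TADs as limits the Antennapedia complex had 1.21. The share of windows below the bithorax complex stayed between 93.6 and 96.5%, but that below the Antennapedia complex ran from 57.0 to 95.0%. The median insulation of both borders in the bithorax complex was -0.52, and -0.64 in a 30 kb square. That of the Antennapedia complex was -0.02, with -0.12 in a 30 kb square, and reversed to 0.23 in a 100 kb square, for which the cause was not tested. Starting the short range at 20 kb gave short-range to long-range ratios of 0.450 (bithorax) and 0.467 (Antennapedia). Counting only TADs with at least 50% of their length inside left 1 for the bithorax complex. No paired analysis was possible because the replicates were combined before deposition, and for the same reason no replicate could be left out. Depth limits what single bin pairs between the complexes can show, since 68.0% of them hold 0 di-tags.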

Other observations

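The share of contacts that led outside 3R was low in the bithorax complex. Of all di-tag ends in the bithorax complex, 8.59% led to other arms or scaffolds (16726 di-tags), and 0.254% of the 330 kb windows of 3R had a lower share. For the Antennapedia complex the share was 10.0% (25202 di-tags), and 22.2% of windows were lower. The median bin of 3R had 10.6%.

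No window on 2L, 2R, 3L or X reached the 460 di-tags between both complexes. That sets contacts between arms against a contact within 1 arm. On 3R already the median window pair 10 Mb apart held 219 di-tags, more than any window on these arms. The comparison therefore says nothing particular about the complexes. With the bithorax complex, windows of 350 kb held medians of 57 (2L), 58 (2R), 73 (3L) and 56 di-tags (X), and the highest on each arm held 109, 115, 138 and 88. The highest of these lay on 3L from 550001 to 900000 (interval 116 to 163). With the Antennapedia complex, the highest window of 330 kb held 216 di-tags (interval 188 to 247) on 3L from 20370001 to 20700000, where the median of 3L was 104. The raw counts between arms were not corrected for the totals of the bins.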
